A study of Mus musculus with 4 samples.

Results

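Genes of DNA replication and of DNA repair and checkpoint control were followed from mouse embryonic stem cells into an epiblast-like tissue. A total of 43 genes were chosen by name, 31 of replication and 12 of repair and checkpoint control, out of 18193 genes with a value, and all 43 were measured. No measured value entered the choice of names, but the list was drawn up with earlier results of these data known. Where the platform annotation tied several probe sets to 1 symbol, the brightest on average gave the gene its value.

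The day 3 samples (2 arrays, replicates 1 and 2) were epiblast-like tissue made by SFEBq, a culture in which dissociated cells quickly gather into floating aggregates in medium without serum. The day 0 samples (2 arrays, replicates 1 and 2) were the mouse embryonic stem cells before that culture. Total RNA of each sample was read on an Affymetrix expression array. The labels gave no genotype, line, strain, medium or feeder layer for either day, and did not say whether the duplicates came from separate cultures. The p-values therefore reflect how far duplicate arrays differ, which may be technical variation alone.

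Values were log2 intensities from RMA, which makes the distributions of the arrays alike, so a change in total RNA per cell could not be seen. The number of arrays limited the precision. Pearson's r across genes was 0.998 between the day 3 duplicates, 0.997 between the day 0 duplicates and 0.962 between days. Markers of the labelled state differed as named: all 6 formative or primed epiblast genes examined were called higher at day 3 (median log2 difference 3.35), and all 8 naive stem cell genes were called lower (median -3.11). General pluripotency genes were mixed: of 5, 3 were called lower, 1 higher and 1 not called (median -0.24). Of 10 visceral endoderm genes, markers of an extra-embryonic tissue, 9 were called higher and 0 lower. The median level of these 10 genes was 10.07 and 10.27 on the day 3 arrays, against 6.79 and 6.72 on the day 0 arrays. Apob, one of them, had 10.97 and 11.32 at day 3, against 4.28 and 4.44 at day 0, and its day 0 values lay near the first quartile of all values (4.32). Of 6 neural plate genes 1 was called higher and 1 lower, of 4 primitive streak genes 2 were called higher and 0 lower, and of 6 fibroblast genes 3 were called higher and 1 lower. The fibroblast genes called higher were Thy1 (1.82), Dcn (0.96) and Col1a2 (0.49), and the one called lower was Vim (-3.42). The other two, Col1a1 and Postn, were not called, and Col1a1 had 4.86 and 4.53 at day 3 and 4.67 and 4.57 at day 0, near the first quartile. These cell type markers moved between the same arrays as the replication and repair genes, and their part in the differences below was not tested.

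Before S phase, the origin recognition complex, Cdc6 and Cdt1 load the Mcm2-7 helicase onto DNA, a step called licensing, and geminin holds Cdt1 back once replication has begun. Cdc45 and the GINS complex then switch the helicase on, and polymerases, the sliding clamp Pcna and its loader copy the strands with nucleotides made by ribonucleotide reductase and thymidylate synthase. Repair proteins mend breaks, crosslinks and mismatches, and checkpoint kinases slow the cycle when forks stall or DNA breaks. Embryonic stem cells are known for rapid cycling with a short G1 phase and for reliance on homologous recombination. Many replication genes are targets of the E2F transcription factors.

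Most members were lower at day 3. Of the 43 genes, 30 were called lower (limma, Benjamini-Hochberg adjusted p under 0.05 over all genes), 1 was called higher and 12 were not called, where 21.4% of all genes were called lower and 20.9% higher. Bright genes are called more readily, and 42 of the 43 members lay above the median level of all genes. Among the 9096 genes above that median, 33.7% were called lower and 29% higher. The differences were small: the median over the 43 genes was -0.32 on the log2 scale, beside 0.011 over all genes and -0.036 over genes above the median level. In bulk samples, fewer cells that express a gene and less of its RNA per cell cannot be told apart. For 40 of the 43 genes both arrays of one day lay above both of the other, as they did for 69% of all genes and 84.4% of genes above the median level. Day 3 was the lower day for 36 of these 40, where both day 3 arrays lay below both day 0 arrays for 33.7% of all genes and 45.6% of genes above the median level.

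**Figure D1:**
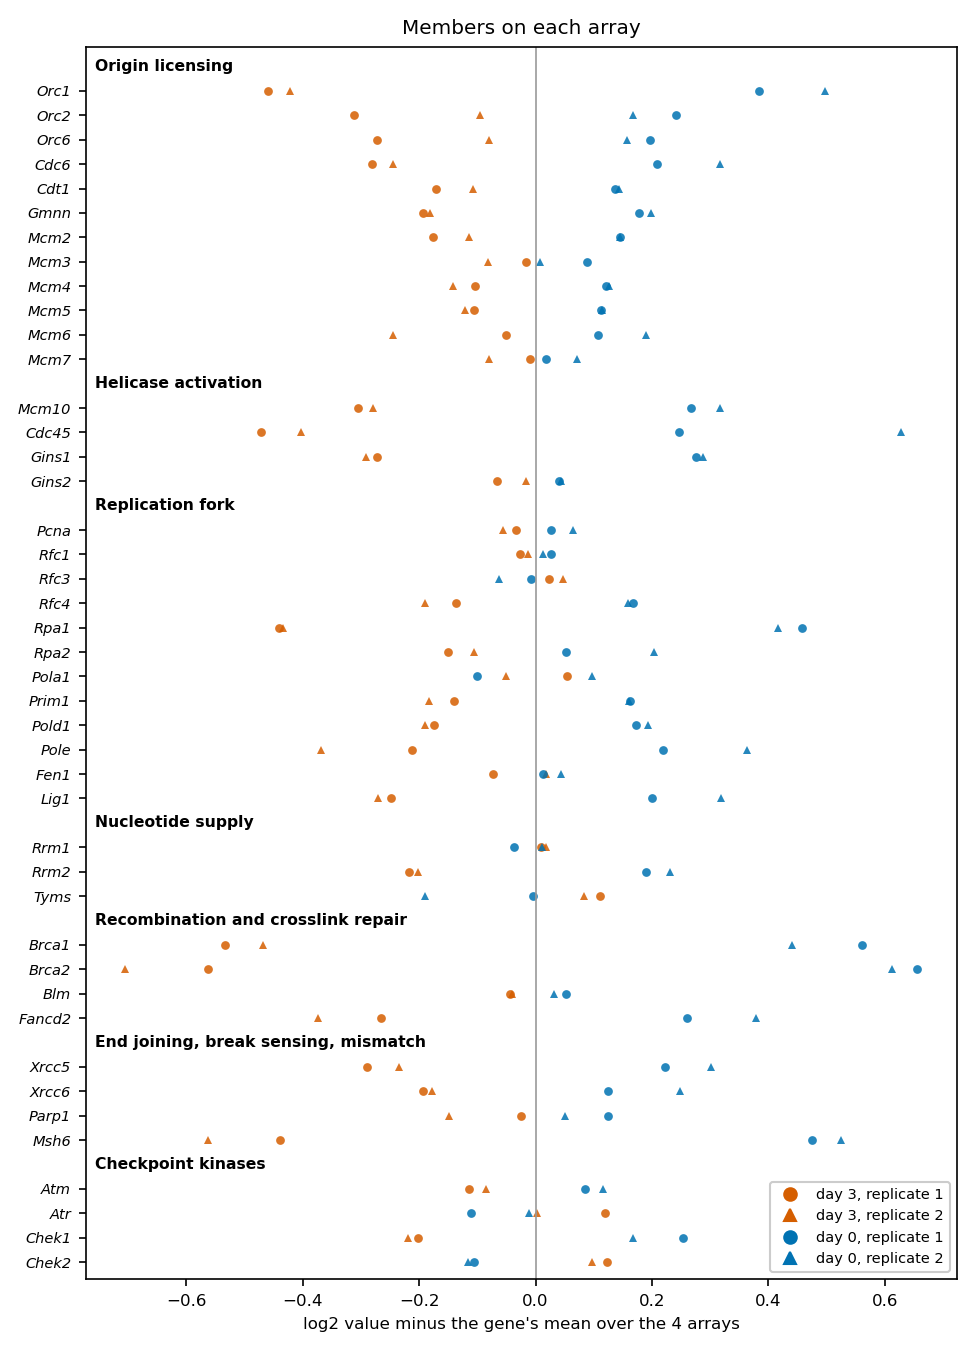
Values of the 43 genes on each of the 4 arrays, as the log2 value minus the gene's own mean over the 4 arrays, with genes grouped by role. Orange marks day 3 and blue day 0, and shape marks the replicate. Day 3 points lie left of both day 0 points for 36 genes and right of them for 4 genes, and the days overlap for 3 genes (Pola1, Fen1 and Rrm1).

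Promoter sequence played no part in the choice of the members. RefSeq promoter windows of build GRCm38.p6, from 250 bases before to 50 bases after a gene's start, were found for 37 of the 43 genes. The E2F consensus was searched on both strands as TTTCCCGC, TTTCGCGC, TTTGCCGC and TTTGGCGC. It was matched in 11 of 26 replication members (42.3%) and 4 of 11 repair members (36.4%), beside 2.6% of the 27025 genes in the promoter table and 3.81% of the 14452 among them that are on the arrays. The CCAAT box, searched as CCAAT on both strands, was matched in 73.1% of replication members and 63.6% of repair members, beside 42% of genes on the arrays. The cell cycle homology region, searched as TTTGAA and TTCGAA on both strands, was matched in 19.2% and 9.09%, beside 17.5%. By call, a match to the E2F consensus was present for 10 of 25 members called lower (40%) and for 4 of 11 members not called (36.4%). The larger sets were not matched to the members for level or for the base composition of promoters, and the part of either was not tested. Such a match is a run of letters, not a known binding site, and genes with several listed starts were counted when any of their windows held one.

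**Figure D2:**
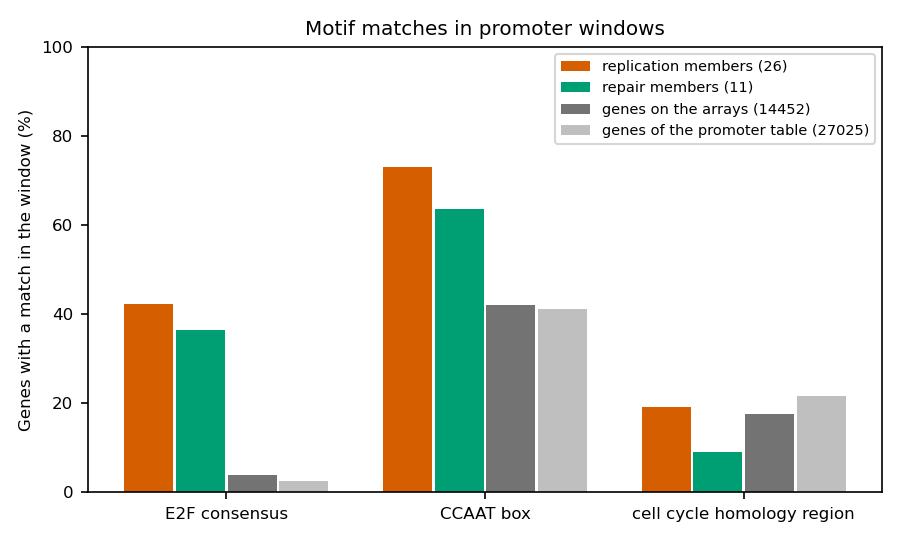
Share of genes, in percent, whose promoter window holds a match to each of 3 motifs. Bars stand for replication members, repair members, genes on the arrays and all genes of the promoter table, with the number of genes in brackets. The E2F bars of members stand at 42.3% and 36.4%, and those of the larger sets at 3.81% and 2.6%.

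Windows of 30 bases are shown to set the E2F letters of members that were called lower beside those of members that were not. They come from RefSeq (GRCm38.p6), are written 5′ to 3′ on the strand of the gene, and capitals mark the match nearest the start, on either strand. The first 8 belong to genes called lower.
Cdc6 (chr11:98908002-98908031, plus strand): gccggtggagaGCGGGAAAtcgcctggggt
Cdt1 (chr8:122568035-122568064, plus strand): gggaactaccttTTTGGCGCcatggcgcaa
Mcm5 (chr8:75109347-75109376, plus strand): gccaagaacTTTCGCGCCAAAacgtccagc
Mcm6 (chr1:128359734-128359763, minus strand): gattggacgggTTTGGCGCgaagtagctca
Pold1 (chr7:44548766-44548795, minus strand): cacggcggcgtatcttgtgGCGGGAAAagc
Lig1 (chr7:13278841-13278870, plus strand): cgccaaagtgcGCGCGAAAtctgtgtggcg
Xrcc6 (chr15:82016312-82016341, plus strand): agggggtggaaGCGGGAAAtgcgagtgggc
Msh6 (chr17:87975054-87975083, plus strand): ctcctcccgacTTTCCCGCcagcggcggcc
The next 4 belong to genes not called, and the last to Chek2, which was called higher.
Mcm3 (chr1:20820275-20820304, minus strand): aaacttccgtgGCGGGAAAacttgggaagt
Mcm7 (chr5:138171849-138171878, minus strand): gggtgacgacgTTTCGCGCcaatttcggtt
Rfc3 (chr5:151651190-151651219, minus strand): ctttcgcgctcGCGGGAAAactctactgtc
Pola1 (chrX:93632275-93632304, minus strand): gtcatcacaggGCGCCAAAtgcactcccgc
Chek2 (chr5:110839820-110839849, plus strand): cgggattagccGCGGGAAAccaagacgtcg
The Rfc3 window also holds a further match, tttcgcgc, left in lower case. The same run, GCGGGAAA, stood before the start of Cdc6, called lower, at the start of Rfc3, not called, and before the start of Chek2, called higher. Mcm5 carried overlapping matches on both strands, read as TTTCGCGCCAAA and starting 153 bases before the start. Of the 15 members with a match, Orc1 and Brca2 included, 8 had the one nearest the start before it and 7 at or after it. Only the match of Mcm7 shared bases with a CCAAT box, and 0 of these 15 shared bases with the cell cycle homology region.

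Most genes of origin licensing were lower at day 3. Of 12 genes, 10 were called lower (83.3%), 0 higher and 2 not called, where 33.7% of genes above the median level were called lower. For all 12 both day 3 arrays were below both day 0 arrays, as for 45.6% of genes above the median level. The median difference of these 12 was -0.29. Orc1, the largest subunit of the origin recognition complex, had 9.56 and 9.60 on the day 3 arrays, against 10.40 and 10.52 on the day 0 arrays. Its difference of -0.88 ± 0.07 (SE, limma adjusted p = 2.3e-06) was the lowest of the 31 replication members, and its second probe set was also called lower, by 0.53. Orc2 and Orc6, further subunits of the complex, fell by 0.41 and 0.35, and all 3 probe sets of Orc2 were called lower. The promoter of Orc1 is shown because the gene had the lowest difference among the replication members. It is taken from RefSeq (GRCm38.p6), covers the 250 bases before the start, and has its E2F match in capitals, 27 bases before the start.
Orc1 (chr4:108579204-108579453, plus strand): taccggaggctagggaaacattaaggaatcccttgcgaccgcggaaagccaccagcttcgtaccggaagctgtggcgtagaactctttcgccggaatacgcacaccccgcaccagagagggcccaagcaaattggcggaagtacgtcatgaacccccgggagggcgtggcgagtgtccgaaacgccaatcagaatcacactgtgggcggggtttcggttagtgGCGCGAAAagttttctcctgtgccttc
The CCAAT box is matched further upstream in this stretch, 120 and 66 bases before the start.

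The loading factors also fell. Cdc6, an ATPase that joins the origin complex to load the helicase, had 10.40 and 10.43 at day 3, against 10.89 and 11.00 at day 0, a difference of -0.53 ± 0.065 (SE, limma adjusted p = 6.8e-05). Cdt1, the partner of Cdc6 in loading, had 12.75 and 12.81 at day 3, against 13.06 and 13.07 at day 0 (difference -0.28). Gmnn, encoding geminin, the inhibitor of Cdt1, had 11.76 and 11.78 at day 3, against 12.13 and 12.15 at day 0 (difference -0.37). The loader and its inhibitor thus moved the same way. The difference between the changes of Cdt1 and Gmnn was not tested.

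The 6 subunits of the Mcm2-7 helicase had differences between -0.30 and -0.090. Mcm2, Mcm4, Mcm5 and Mcm6 were called lower, by 0.29, 0.25, 0.23 and 0.30. Mcm4 had 12.49 and 12.45 at day 3, against 12.71 and 12.72 at day 0, so that the spread within a day was far below the gap between days. Mcm5 had 12.78 and 12.76 at day 3, against 13.00 and 13.00 at day 0. Mcm7 had 13.58 and 13.51 at day 3, against 13.61 and 13.66 at day 0, and was not called (adjusted p = 0.18), nor were its other 3 probe sets, with differences from -0.13 to -0.11. Mcm3 was not called from the probe set kept (difference -0.097, adjusted p = 0.2), while 2 of its other 4 probe sets were called lower, at -0.24 and -0.18. Mcm6 was not called without day 3 replicate 2 (difference -0.20, adjusted p = 0.073), and neither Mcm5 nor Mcm6 was called without the intensity trend in the variance model (adjusted p = 0.063 and 0.056).

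Among the 4 genes that turn the loaded helicase on, 3 were called lower (75%), 0 higher and 1 was not called. Their median difference was -0.57, and 33.7% of genes above the median level were called lower. Cdc45, a subunit of the active helicase, had 8.46 and 8.53 at day 3, against 9.18 and 9.56 at day 0. The day 0 duplicates of Cdc45 stood further apart than those of most members, yet both were above both day 3 arrays (difference -0.87 ± 0.11 SE, adjusted p = 0.00011, limma). Mcm10, which aids helicase activation, fell by 0.58 and had 10.46 and 10.49 at day 3, against 11.03 and 11.08 at day 0. Of the GINS subunits, Gins1 had 10.65 and 10.63 at day 3, against 11.20 and 11.21 at day 0 (difference -0.56), while Gins2 had 10.34 and 10.39 at day 3, against 10.45 on both day 0 arrays (difference -0.083, not called). The other GINS genes, Gins3 and Gins4, which were not among the members, were called lower with differences of -0.48 and -0.43. The subunits were not tested against each other.

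Genes of the replication fork split into a group that fell and a group that was not called. Of 12 genes, 7 were called lower (58.3%), 0 higher and 5 not called, with a median difference of -0.29. Of genes above the median level, 33.7% were called lower. Rpa1, the large subunit of the protein that coats single-stranded DNA, had 12.64 and 12.65 at day 3, against 13.54 and 13.50 at day 0. Its difference of -0.88 ± 0.047 (SE, limma adjusted p = 1.3e-07) was larger than the spread within a day, and its second probe set gave -1.02. Rpa2, the middle subunit, had 10.83 and 10.88 at day 3, against 11.04 and 11.19 at day 0 (difference -0.26, adjusted p = 0.01). Its call was lost on leaving out day 3 replicate 1 (-0.23, adjusted p = 0.099), day 3 replicate 2 (-0.28, adjusted p = 0.058), day 0 replicate 2 (-0.18, adjusted p = 0.063) or the intensity trend (adjusted p = 0.066). Rpa3, the small subunit and no member, had a difference of -0.077 and was not called. The promoter of Rpa1 is shown because its difference was next to that of Orc1 among replication members. It covers the 250 bases before the start (RefSeq, GRCm38.p6), holds no match to the E2F letters, and is therefore written without capitals. A CCAAT box match lies 42 bases before the start.
Rpa1 (chr11:75348384-75348633, minus strand): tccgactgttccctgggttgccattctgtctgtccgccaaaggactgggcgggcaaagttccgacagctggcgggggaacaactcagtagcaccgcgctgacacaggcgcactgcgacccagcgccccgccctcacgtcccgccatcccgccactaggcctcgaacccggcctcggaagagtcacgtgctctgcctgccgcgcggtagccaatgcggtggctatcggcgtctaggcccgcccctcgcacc

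Among the polymerase and primase members, Pole, Pold1 and Prim1 were called lower and Pola1 was not called. Pole, the catalytic subunit of the leading-strand polymerase, had 9.29 and 9.13 at day 3, against 9.72 and 9.86 at day 0 (difference -0.58). Pold1, the catalytic subunit of the lagging-strand polymerase, fell by 0.37, and Prim1, the primase that starts each strand, by 0.32, each with both of its probe sets called lower. Pola1, which extends the primers made by primase, had 10.30 and 10.19 at day 3 and 10.15 and 10.34 at day 0, and the days overlapped (difference 0.0033, adjusted p = 0.98). Lig1, the ligase that seals Okazaki fragments, had 11.44 and 11.41 at day 3, against 11.89 and 12.00 at day 0 (difference -0.52 ± 0.06 SE). Fen1, the nuclease that trims those fragments before Lig1 acts, had 11.94 and 12.03 at day 3 and 12.03 and 12.06 at day 0, and was not called (difference -0.056).

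The sliding clamp gene Pcna had 13.85 and 13.83 at day 3, against 13.91 and 13.95 at day 0. The days did not overlap, but the difference of -0.090 was not called (adjusted p = 0.13). Of the clamp loader subunits, Rfc4 fell by 0.33 and was called lower from both of its probe sets. Rfc1 (-0.039) and Rfc3 (0.070) were not called from the probe sets kept. Among the 3 probe sets of Rfc1, 1 that was not kept was called lower, at -0.22. Of the loader subunits outside the members, Rfc2 was called lower (-0.38) and Rfc5 was not called (0.040). Nucleotide supply gave 1 gene called lower of 3 (33.3%), with 0 higher, where 33.7% of genes above the median level were called lower. Rrm2, the small subunit of ribonucleotide reductase that is made in S phase, had 12.51 and 12.52 at day 3, against 12.91 and 12.95 at day 0 (difference -0.42), and all 3 of its probe sets were called lower. Rrm1, the large subunit of the same enzyme, had 11.50 and 11.51 at day 3 and 11.45 and 11.50 at day 0 (difference 0.027, not called). Tyms, encoding thymidylate synthase, was represented by a dim probe set with 6.02 and 5.997 at day 3 and 5.91 and 5.72 at day 0, and none of its 4 probe sets was called.

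**Figure D3:**
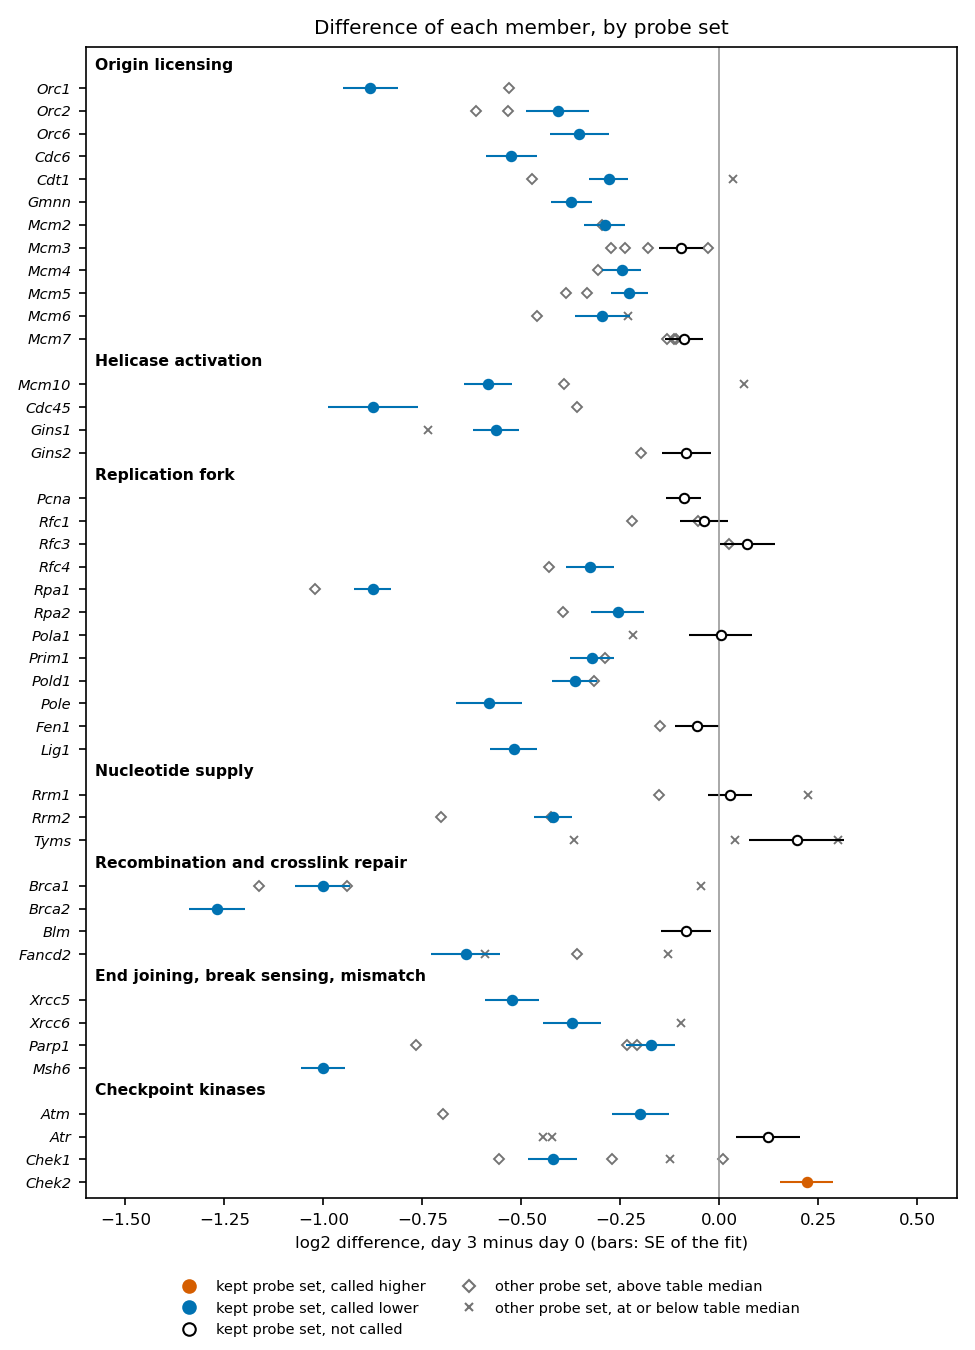
Log2 difference, day 3 minus day 0, of each member (circles, kept probe set, with the standard error of the fit as a bar) and of its other probe sets (diamonds above, crosses at or below the median of the whole table). Blue circles were called lower, the orange circle (Chek2) was called higher and open circles were not called. The lowest circle is Brca2 at -1.27.

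Repair and checkpoint genes spanned a wider range of differences than those of replication. Of 12 genes, 9 were called lower (75%), 1 higher and 2 not called, where 33.7% of genes above the median level were called lower. For 12 of 12 the duplicates of one day lay wholly above those of the other, as for 84.4% of genes above the median level. The 4 genes of recombination and crosslink repair had a median difference of -0.82. Brca2, which acts in homologous recombination, had 9.66 and 9.52 at day 3, against 10.88 and 10.83 at day 0. Its difference of -1.27 ± 0.071 (SE, limma adjusted p = 1.7e-07) was the lowest of the 43 members. Brca1, a ubiquitin ligase that directs breaks to recombination, had 9.75 and 9.82 at day 3, against 10.84 and 10.72 at day 0 (difference -1.002 ± 0.069 SE). Of the 4 Brca1 probe sets 3 were called lower, between -1.16 and -0.94, and the remaining one, at -0.047, was dimmer than the median probe set. The promoter of Brca2 is shown because the gene had the lowest difference of all members. It covers the 250 bases before the start (RefSeq, GRCm38.p6), with the E2F match in capitals 168 bases before the start.
Brca2 (chr5:150522371-150522620, plus strand): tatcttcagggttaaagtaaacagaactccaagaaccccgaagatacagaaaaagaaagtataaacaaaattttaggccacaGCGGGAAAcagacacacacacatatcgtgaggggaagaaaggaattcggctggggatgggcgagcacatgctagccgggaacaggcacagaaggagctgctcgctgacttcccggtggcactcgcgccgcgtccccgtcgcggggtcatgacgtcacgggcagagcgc

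Fancd2, which is ubiquitinated at DNA crosslinks, had 8.23 and 8.12 at day 3, against 8.76 and 8.87 at day 0 (difference -0.64). Blm, the helicase of Bloom syndrome that resolves recombination intermediates, had 10.08 on both day 3 arrays, against 10.17 and 10.15 at day 0, and was not called (difference -0.084). Msh6, which recognizes base mismatches, had 12.27 and 12.15 at day 3, against 13.19 and 13.24 at day 0. The Msh6 difference of -1.001 ± 0.056 (SE, adjusted p = 1.8e-07, limma) placed it with Brca1 and Brca2 as the 3 members called lower by at least 2-fold, where 4.25% of all genes were, and Brca1 and Msh6 lay just past that threshold. None of the 31 replication members was among them from the probe set kept, though the second probe set of Rpa1 lay past the threshold (-1.02). Among the 9096 genes above the median level, 516 were called lower by at least 2-fold.

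The Ku genes, whose products form the ring that holds broken ends for joining, fell together. Xrcc5, encoding Ku80, had 9.74 and 9.80 at day 3, against 10.25 and 10.33 at day 0 (difference -0.52). Xrcc6, encoding Ku70, had 9.52 and 9.54 at day 3, against 9.84 and 9.96 at day 0 (difference -0.37). Parp1, which senses strand breaks, had 11.89 and 11.77 at day 3, against 12.04 and 11.97 at day 0. Its difference of -0.17 was called (adjusted p = 0.041) but not without day 3 replicate 2 (-0.11, adjusted p = 0.28) or day 0 replicate 1 (-0.14, adjusted p = 0.16), nor with quantile normalization again (adjusted p = 0.1) or without the intensity trend (adjusted p = 0.17). Of the Parp1 probe sets not kept, a dim one was called lower at -0.77, while brighter ones at -0.23 and -0.21 were not called.

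Of the 4 checkpoint kinases, 2 were called lower, 1 higher and 1 not called. Among genes above the median level, 33.7% were called lower and 29% higher, so calls in both directions are common at this level. Chek1, the kinase that Atr activates at stalled forks, had 10.47 and 10.45 at day 3, against 10.92 and 10.84 at day 0 (difference -0.42 ± 0.063 SE, limma adjusted p = 0.00027). Of its 5 probe sets 2 were called lower, at -0.42 and -0.56, and the brightest of those not called was at 0.0083. Chek2, the kinase that Atm activates at double-strand breaks, was the 1 member called higher, with 9.80 and 9.78 at day 3, against 9.58 and 9.57 at day 0 (difference 0.22, adjusted p = 0.022). The call of Chek2 was lost without day 3 replicate 1 (0.21, adjusted p = 0.12) or day 3 replicate 2 (0.23, adjusted p = 0.089) and without the intensity trend (adjusted p = 0.069). Atm, the kinase upstream of Chek2, had 9.10 and 9.13 at day 3, against 9.30 and 9.33 at day 0 (difference -0.20, adjusted p = 0.047). Its call was lost with any 1 array left out (adjusted p = 0.19 for day 3 replicate 1, 0.13 for day 3 replicate 2, 0.067 for day 0 replicate 1 and 0.12 for day 0 replicate 2, at differences from -0.22 to -0.18), although its second probe set was called lower at -0.70. Atr had 9.23 and 9.11 at day 3 and 8.99 and 9.09 at day 0 and was not called (difference 0.12, adjusted p = 0.27), while its mean over 3 probe sets had the opposite sign (-0.25, adjusted p = 0.061). The lower value came from dim probe sets at -0.45, called lower, and -0.42, not called.

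Set side by side, replication and repair members differed little in the middle of their ranges. The share called lower was 67.7% of 31 replication members (21 genes) and 75% of 12 repair members (9 genes), with 0 and 1 called higher. The median difference was -0.30 for replication members, with a range of -0.88 to 0.19, and -0.40 for repair members, with a range of -1.27 to 0.22. The ranges overlapped over most of their length, and the gap of 0.10 between the medians was not tested, since members are not replicates. Each gene's values centred on its own mean gave replication medians of -0.15 and -0.12 on the day 3 arrays, against 0.15 and 0.16 on the day 0 arrays. For repair members they were -0.20 on both day 3 arrays, against 0.17 and 0.21 on the day 0 arrays. Both day 3 medians lay below both day 0 medians in each class.

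**Figure D4:**
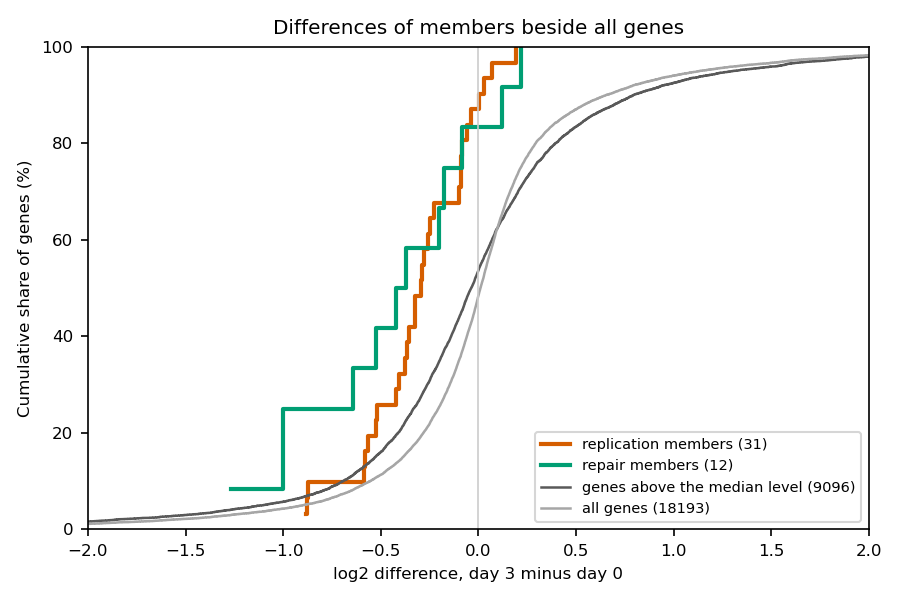
Cumulative share of genes, in percent, by log2 difference (day 3 minus day 0) for replication members, repair members, genes above the median level and all genes, drawn between -2 and 2. Both member curves lie left of the others around the middle, with medians of -0.30 and -0.40, and of the member curves the repair curve alone passes below -1.

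Probe sets of the same gene bore on how far each value can be trusted. Of the 43 members, 32 had several probe sets, and for 12 of these every probe set was called lower when all probe sets of the table were tested. For 24 of the 32 every probe set had a negative difference, and no probe set of these 32 genes was called higher. Of the 57 probe sets not kept, 27 were called lower and 0 higher, where 16.6% of all probe sets were called lower and 14.2% higher. Most calls came from bright probe sets: 25 of the 41 that lay above the median of all probe sets were called lower, against 2 of the 16 at or below it. The share called among all probe sets above that median was not counted, so the 16.6% is not matched for level. For Orc2, Mcm5, Mcm6 and Rrm2 a dimmer probe set gave a larger fall than the kept one, reaching -0.62, -0.39, -0.46 and -0.70. For Orc1, Cdc45, Mcm10 and Fancd2 a dimmer probe set gave a smaller fall, at -0.53, -0.36, -0.39 and -0.36. Those of Cdc45 and Mcm10 were not called. With all probe sets tested, 28 of the 43 kept probe sets were called lower, and those of Parp1 and Atm no longer were (adjusted p = 0.059 and 0.076).

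Further genes of the same pathways were taken from lists by pathway, drawn up with earlier results known. Their counts stand beside 33.7% called lower and 29% higher among genes above the median level, and 21.4% and 20.9% among all genes. Of 14 other origin and helicase genes, 8 were called lower, 2 higher and 4 not called (median -0.26). Ticrr, which helps origins fire, fell by 1.34 and had 8.77 and 8.61 at day 3, against 9.99 and 10.07 at day 0. Recql4, a helicase of origin firing, fell by 0.52. Of 21 other fork genes, 11 were called lower, 3 higher and 7 not called (median -0.24), with the clamp loader gene Chtf18 (-0.98), the polymerase epsilon subunit gene Pole4 (-0.83) and the nuclease gene Dna2 (-0.77) lowest. Of 9 other nucleotide supply genes, 3 were called lower (33.3%, near the share of genes above the median level) and 2 higher (median 0.023). Tk1, the thymidine kinase of S phase, fell by 0.97 and had 9.31 and 9.41 at day 3, against 10.26 and 10.41 at day 0. Dtymk, a thymidylate kinase gene, fell by 0.55, while Samhd1, whose product breaks down nucleotides, rose by 0.53.

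Among repair lists, that of the Fanconi anaemia genes had the largest share called lower, with 9 of 12 called lower, 1 higher and 2 not called (median -0.36). Fancm, a helicase that anchors the complex to DNA, fell by 1.03, and Fanci, the partner of Fancd2, by 0.96, while Ube2t, the conjugating enzyme that acts on both, rose by 0.50. Of 17 other homologous recombination genes, 6 were called lower (35.3%), 1 higher and 10 not called (median -0.24). That share called lower was near the 33.7% of genes above the median level. Bard1, the partner of Brca1, had 6.02 and 6.28 at day 3, against 7.25 and 7.42 at day 0, and fell by 1.19, next to the fall of 1.002 of Brca1. Rad52, which anneals DNA strands, fell by 0.51, and Rad51d, a recombination gene, rose by 0.55.

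Of 7 other end joining genes, 1, the kinase gene Prkdc (-0.29), was called lower, 0 were higher and 6 were not called (median -0.11). That share called lower (14.3%) was below the 33.7% of genes above the median level and the 21.4% of all genes. Of 4 other mismatch repair genes, 2 were called lower (Mlh3 at -0.97 and Pms2 at -0.49) and 1 higher (Msh3 at 0.26). Of 24 genes of base and nucleotide excision repair, 9 were called lower (37.5%), 2 higher and 13 not called (median -0.10). That share called lower was near the 33.7% of genes above the median level. Ercc4, a nuclease subunit gene, was at -0.92, the uracil glycosylase gene Ung at -0.79 and the glycosylase gene Neil3 at 0.72. Of 13 other checkpoint and damage response genes, 6 were called lower, 2 higher and 5 not called (median -0.036). Hus1 and Rad17, of the clamp that signals to Atr and of its loader, fell by 0.70 and 0.42, and Trp53bp1, which favours end joining, rose by 0.49.

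Of 20 regulators of S phase, 10 were called lower (50%), 5 higher and 5 not called (median -0.16), beside 33.7% lower and 29% higher among genes above the median level. The activator E2f1 had 8.41 and 8.33 at day 3, against 8.91 and 9.05 at day 0 (difference -0.61), and E2f2, another activator, fell by 1.07. E2f3, the remaining activator, rose by 0.31, and the repressor genes E2f6 and E2f7 rose by 0.69 and 0.64. Of the other family members, E2f5 rose by 0.345, while E2f4 (0.12) and E2f8 (0.095) were not called. Rb1, the retinoblastoma protein gene, had a difference of -0.57 and was called lower. Its relative Rbl2 fell by 1.06 from a dim probe set, with 5.19 and 5.03 at day 3, against 6.45 and 5.89 at day 0. The day 0 duplicates of Rbl2 stood far apart. Another relative of Rb1, Rbl1, was not called (0.19). Ccne1 and Cdk2, the cyclin and kinase that start S phase, fell by 0.32 and 0.34, while Ccna2 was not called (-0.077). Of 15 mitosis and proliferation genes, 10 were called lower, 1 higher and 4 not called (median -0.35). Bub1b, Aurka and Cdk1 fell by 0.56, 0.53 and 0.51, and Mki67, the gene of the proliferation antigen Ki-67, had 11.31 and 11.23 at day 3 and 11.36 and 11.29 at day 0 and was not called (difference -0.058, adjusted p = 0.5). Mitosis genes therefore moved beside the replication members in these arrays, and their part in the members' differences was not tested.

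**Figure D5:**
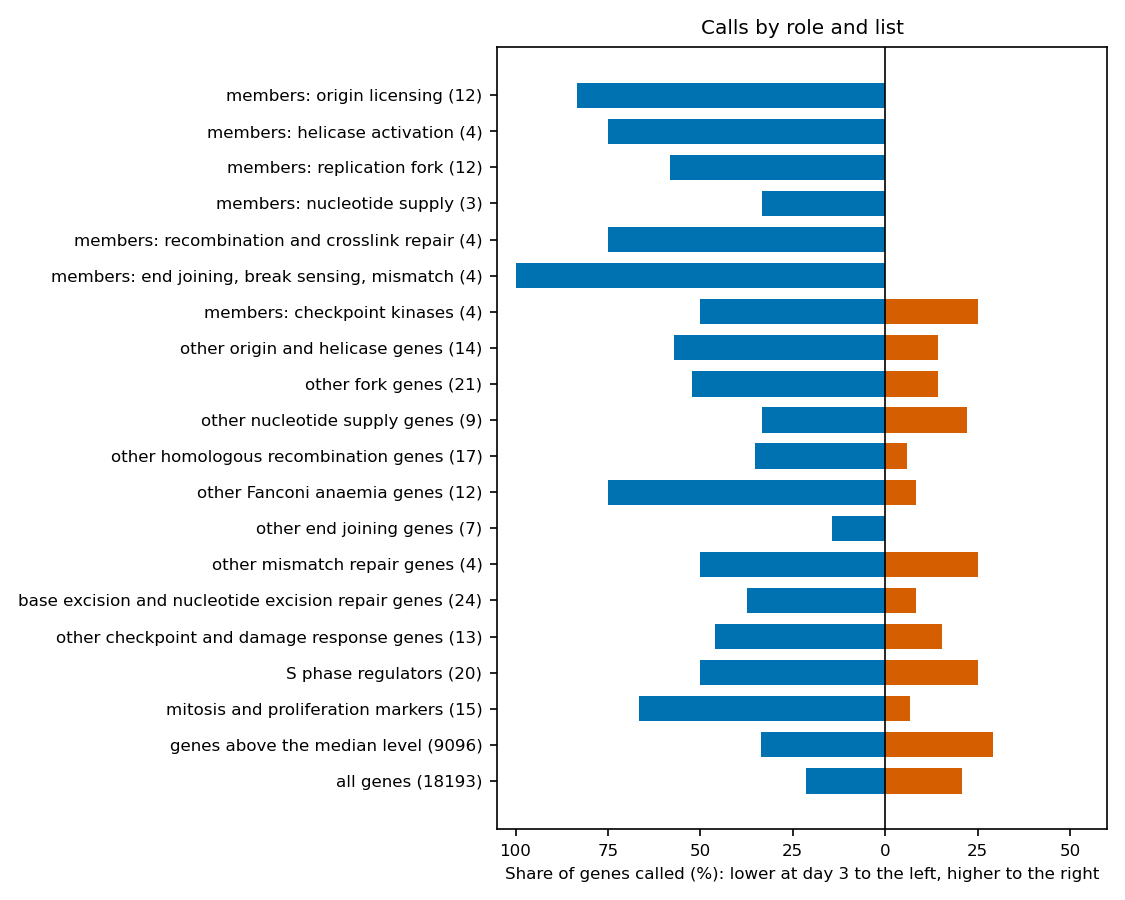
Share of genes called lower (blue, to the left) and higher (orange, to the right) at day 3, in percent, for members by role, for the other pathway lists and, at the bottom, for genes above the median level and all genes, with the number of genes in brackets. Origin licensing members stand at 83.3% lower and other end joining genes at 14.3%, beside 33.7% for genes above the median level and 21.4% for all genes.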

How the data were processed

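The deposited table held log2 values, 1 for each of 45101 probe sets on each of 4 arrays. RMA and R 2.13.0 are named in the submitters' processing notes. Other settings are not given in the sources used here. Of the probe sets, 64 were controls, 932 matched several symbols and were not used, and 34945 others had 1 symbol. The probe set with the highest mean over the arrays stood for each of 18193 genes. Day 3 minus day 0 was modelled with limma 3.58.1 under R 4.3.3 (lmFit, eBayes with an intensity trend, no covariate), two-sided, with Benjamini-Hochberg adjustment over all 18193 genes and a threshold of 0.05. Each gene had 2 residual degrees of freedom, and the shared variance estimate added 8.02. No filter on low values and no detection calls were used.

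The members, lists and tests were chosen with earlier results of these data known. All 43 members are named, with the 3 called genes of each further list whose absolute difference was largest. Other genes named for comparison (Gins4, Rfc2, Rfc5, Rpa3, E2f1, E2f3, E2f4, E2f5, E2f7, E2f8, Rb1, Rbl1, Ccne1, Cdk2, Ccna2, Mki67 and the marker Apob, beside the fibroblast list) were chosen after their values were seen. Of 167 genes on these lists, 156 had a value, and 11 were not analysed here. Promoter sequences came from RefSeq (GRCm38.p6), whose table lists them on the strand of the gene. The fitting procedure was tested on simulated data in which 17993 of 18193 genes were unchanged. It recovered 1 of 50 changes of 0.25 on the log2 scale, 20 of 50 of 0.5 and 50 of 50 of 1, and called 10 unchanged genes. In the real data 42.3% of genes were called, so these shares need not hold there. A gene that was not called may still differ by a small amount. Alternatives changed the variance model, normalization, filter, probe sets, threshold and pairing, or left out an array.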

Additional observations from a re-analysis of the deposited data

How the results depend on the processing

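In either direction 21 replication and 10 repair members were called, and 18 to 22 and 7 to 10 in every alternative except the unmoderated test per gene. That test called 9 replication and 4 repair members (3 lower and 1 higher) and 2149 of all 18193 genes, because it rests on 2 degrees of freedom alone. Of the 30 members called lower, 26 were also called lower with each array left out in turn, the others being Mcm6, Rpa2, Parp1 and Atm. Leaving out 1 array gave 5848 to 7440 genes called in all, 19 to 21 replication members and 7 to 9 repair members, with medians of -0.32 to -0.27 and -0.41 to -0.39 and a gap of 0.084 to 0.13. Median differences also moved with quantile normalization again (-0.26 for replication, -0.35 for repair), with probe sets averaged per gene (-0.32 for replication, gap 0.072) and without probe sets of suffix _s_at or _x_at (-0.32, -0.45, gap 0.13). The cause was not tested.

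Signs turned for 3 genes that were not called. Pola1 was at -0.0057 with median centring, -0.11 from the mean of its probe sets, and -0.096 to 0.10 with 1 array left out (-0.049 without day 3 replicate 1). Atr was at -0.25 from the mean of its probe sets, and Rfc1 at 0.0098 with quantile normalization again. Centring on genes above the median level, chosen after seeing the data, called 21 replication and 8 repair members. With the replicate number as a block, 7660 genes, 21 replication members and 9 repair members were called, and Atm lost its call (adjusted p = 0.065). Same-numbered arrays deviated with a correlation of -0.017 across genes, so the numbers gave no sign of pairing. Dim probe sets limit Tyms and several second probe sets, and no probe set's signal over background was recorded.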
